A study of Mus musculus with 10 samples.

Results

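Antioxidant enzymes and targets of the transcription factor NRF2 were examined in the kidneys of old mice, as 10 genes that cover 3 superoxide dismutases (Sod1, Sod2 and Sod3), catalase (Cat), 3 glutathione peroxidases (Gpx1, Gpx3 and Gpx4) and 3 genes best known as NRF2 targets (Nqo1, Gclc and Txnrd1). They were taken by gene symbol from the deposited table of 13299 genes. All 10 were found there and all 10 were among the 13236 genes that passed the filter on low values. Whole kidneys of 1.5-year-old mice were profiled, with 5 Rragc +/+ mice, whose alleles are both wild-type, and 5 Rragc S74N/+ mice, which carry 1 wild-type and 1 knock-in allele. The knock-in changes position 74 of RagC and was made by CRISPR editing of the germline, so that all cells of the mouse carry it. The study describes its mice as C57BL/6, the labels of these samples give no sex, and both groups share age, tissue, library kit and sequencer. Libraries were read from the 3′ ends of polyadenylated transcripts, so that a transcript gives about 1 tag whatever its length, and the tags do not show the edited codon.

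Cells make superoxide mainly in mitochondria and at NADPH oxidases. Superoxide dismutases turn it into hydrogen peroxide, which catalase splits into water and oxygen. Glutathione peroxidases and the thioredoxin system instead reduce peroxides with electrons that come in the end from NADPH. NRF2, encoded by Nfe2l2, is held in check by KEAP1 and, when oxidants or electrophiles modify KEAP1, enters the nucleus and binds antioxidant response elements near genes for glutathione synthesis, thioredoxin reduction and quinone detoxification. The kidney, with its mitochondria-rich proximal tubules, makes most of the GPX3 found in blood plasma. RagC is a GTPase that brings the growth kinase mTORC1 to the lysosome when nutrients are present.

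The core of the antioxidant response element was searched, as TGACNNNGC on both strands, in the 250 bases before each annotated start in the RefSeq table for GRCm38.p6. The expression data were aligned to GRCm39, so genes were matched by symbol and no coordinate was carried from one build to the other. The table held 13 such windows for 8 of the 10 genes (Sod3 and Gclc were not among them), and 2 windows held a match, 1 at Txnrd1 and 1 at Sod1. Over the whole table, 10.2% of 32851 windows held one. Of the 10 genes, Txnrd1 alone passed the threshold in the limma fit of all 10 kidneys given below. Its window that held a match is therefore shown, with the match in capitals. It lies before 1 of 3 annotated starts of Txnrd1, on the forward strand at chr10:82858956-82859205, and the match, TGACAAAGC on the opposite strand, covers bases -92 to -84 from the start.
Txnrd1 upstream window: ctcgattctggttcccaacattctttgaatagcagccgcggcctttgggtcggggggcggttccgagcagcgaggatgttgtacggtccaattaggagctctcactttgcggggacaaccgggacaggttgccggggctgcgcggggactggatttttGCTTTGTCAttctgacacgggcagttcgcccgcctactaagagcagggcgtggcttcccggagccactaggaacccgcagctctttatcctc
The sites of both genes are set side by side below, each with the bases around it and the match in capitals. That of Sod1, TGACCACGC on the opposite strand, lies at -56 to -48 from its start, at chr16:90220706-90220714.
Txnrd1 site: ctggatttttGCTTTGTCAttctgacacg
Sod1 site: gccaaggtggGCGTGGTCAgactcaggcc
The E-box CACGTG, which is part of the element bound by the lysosomal regulator TFEB, was found in 0 of the 13 windows and in 6.02% of all windows. A match is a description of these letters and does not show that a factor binds there. Sequence beyond the 250 bases was not searched, so a window without a match does not show that its gene lacks an element.

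The 10 libraries held 4488493 to 5797251 reads in the table, with 33.8% to 38.0% of normalized counts from mitochondrial genes. Markers of the proximal tubule were present in every kidney, with a summed level of 12 markers of 117754 to 160966 normalized counts in Rragc +/+ and 121572 to 159333 in Rragc S74N/+. Most of this sum was Kap, with a mean of 94161 of 135774 in Rragc +/+ and 103466 of 143409 in Rragc S74N/+. The sum therefore says little about the other markers. Of the 12, 1 fell, Slc5a2, and 5 had a positive log2 fold change, with a median of -0.11. All 4 markers of the distal convoluted tubule fell, from a summed 4477 to 5597 to a summed 1365 to 2130 normalized counts. In whole tissue, fewer cells of a type and less RNA per cell cannot be told apart. Rragc itself had 146 ± 42.7 normalized counts in Rragc +/+ and 124 ± 26.4 in Rragc S74N/+ (SD, n = 5 per group). Rragc S74N/+ replicate 1 stood apart from the other mice of its genotype. It was far from them, by Dixon's criterion, in 5.23% of the genes tested, against 0.582% to 0.839% for the other Rragc S74N/+ libraries and 0.839% to 1.81% for Rragc +/+ libraries. Of the 10 genes examined here it had the lowest level of its group in 8 and the highest in the other 2, Gpx3 and Txnrd1. Of the 12 proximal tubule markers, 5 (Hnf4a, Cubn, Slc22a6, Slc7a13 and Aqp1) were lower in it than in any other kidney, and their part in its levels of the 10 genes was not tested. Results are therefore given with and without it.

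Of the 10 genes, 1 rose in Rragc S74N/+ kidneys, Txnrd1, and 0 fell (limma on log2 of normalized count + 1, Benjamini-Hochberg adjusted p under 0.05). Over all genes tested the share past the same threshold was 6.03% in either direction, 3.45% higher and 2.58% lower, so that a share of 1 in 10 is near the background. DESeq2 on whole reads recovered from the table called Txnrd1 and also Sod2, which was lower, and edgeR called Txnrd1 alone of the 10. A total of 3 genes, Sod2, Gpx4 and Txnrd1, had an unadjusted p under 0.05, where the share over all genes was 25.4%. The median log2 fold change of the 10 genes was -0.19, beside -0.01 over all genes tested. Without Rragc S74N/+ replicate 1, 2 of the 10 genes rose, Txnrd1 and Gclc, and the median was -0.02, with 6.8% of all genes called in that fit.

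**Figure D1:**
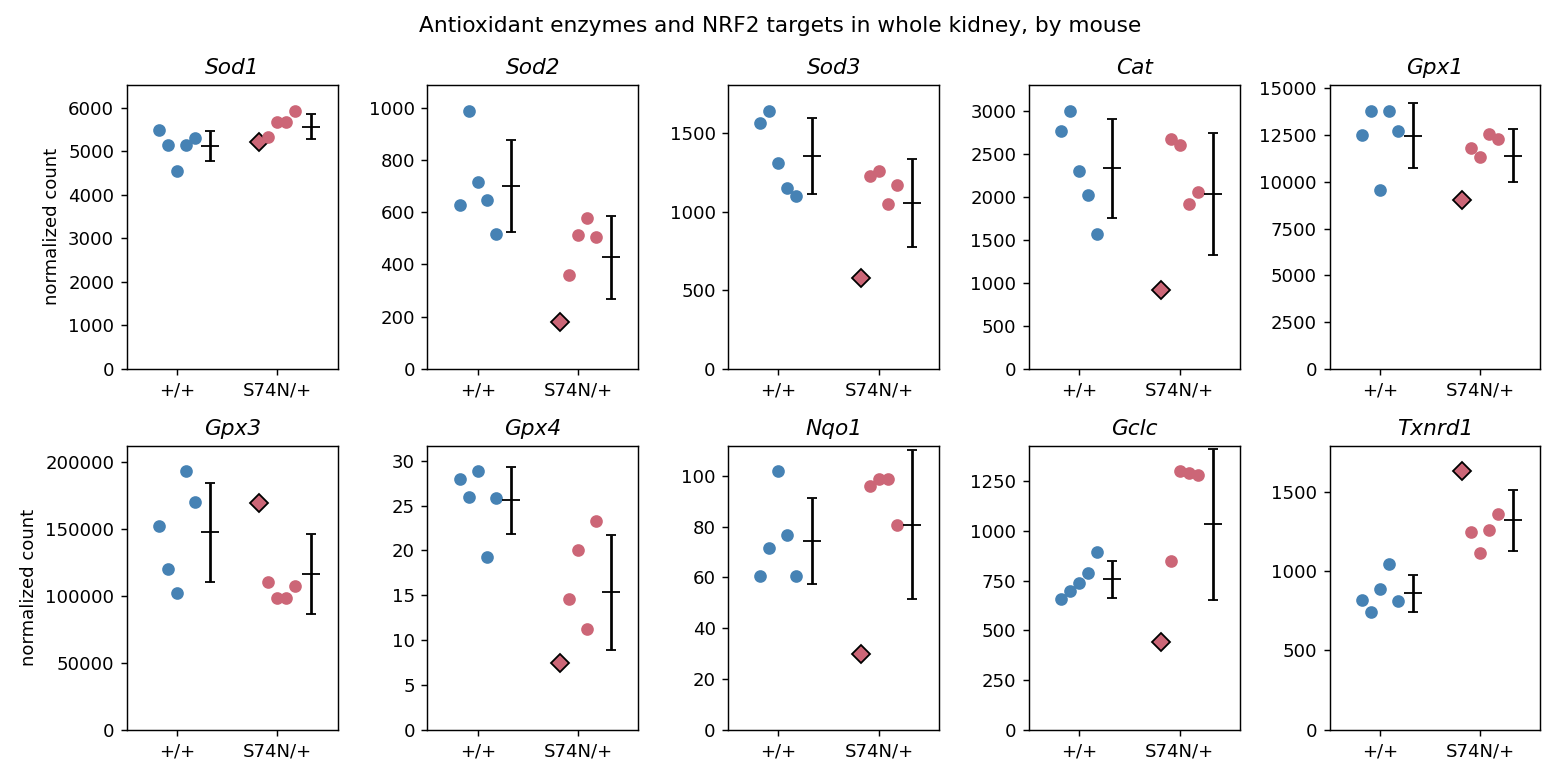
Normalized counts of the 10 genes (vertical axes, linear and starting at 0) in each Rragc +/+ (blue) and Rragc S74N/+ (red) kidney, with the mean and SD of each group beside the points; the outlined diamond is Rragc S74N/+ replicate 1. Only in the panel of Txnrd1 do the points of the groups not overlap, and the diamond is the lowest red point in 8 panels.

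Txnrd1 encodes the cytosolic thioredoxin reductase, a selenoprotein that keeps thioredoxin reduced with electrons from NADPH. The Rragc +/+ kidneys held 817, 741, 883, 1041 and 809 normalized counts of Txnrd1, and the Rragc S74N/+ kidneys 1626, 1244, 1114, 1257 and 1360. All 5 Rragc S74N/+ kidneys lay above all 5 Rragc +/+ kidneys, and replicate 1 was the highest. Such a separation with higher levels in Rragc S74N/+ was found in 4.15% of all genes tested, and one with lower levels in 4.01%. The mean level of Txnrd1 was 858 ± 114 in Rragc +/+ and rose to 1320 ± 192 in Rragc S74N/+ (SD over 5 kidneys each), 1.54 times as high. The log2 fold change was 0.62 ± 0.12 (SE; 95% interval 0.36 to 0.88; limma adjusted p = 0.0092), and 1.32% of genes had a smaller p. The exact two-sided permutation test gave p = 0.00794, the smallest that 5 against 5 samples allow. Without replicate 1 the log2 fold change was 0.54 ± 0.11 (limma adjusted p = 0.0051). Txnrd1 was past the threshold in each of 10 fits that left out 1 kidney, with log2 fold changes of 0.54 to 0.69. Its 712 to 1744 reads per library put the counting error at 3.38% and 2.72% of the mean, well under the observed spread of 13.3% and 14.6%.

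The labels name each sample by a number, and these fall into a lower range with 3 kidneys of each genotype and an upper range with 2 of each. What the ranges stand for is not stated. Txnrd1 was higher in Rragc S74N/+ by 0.69 on the log2 scale in the lower range and by 0.51 in the upper range. The fit on the 3 and 3 kidneys of the lower range alone did not pass the threshold for Txnrd1 (limma adjusted p = 0.14) and called 46 genes in all.

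Gclc encodes the catalytic subunit of glutamate-cysteine ligase, the enzyme of the limiting step in glutathione synthesis. Levels of Gclc were 657, 698, 738, 790.3 and 894 normalized counts in Rragc +/+ and 442, 847, 1299, 1293 and 1281 in Rragc S74N/+. Replicates 3, 4 and 5 of Rragc S74N/+ lay above every Rragc +/+ kidney, replicate 2 lay within their range, and replicate 1 lay below it. Gclc had a log2 fold change of 0.35 ± 0.24 (SE; 95% interval -0.15 to 0.85; limma adjusted p = 0.37; exact permutation p = 0.13). Without replicate 1 the Rragc S74N/+ mean was 1180 ± 222 (SD, n = 4) and the log2 fold change was 0.63 ± 0.13 (95% interval 0.36 to 0.90; limma adjusted p = 0.0057; exact permutation p = 0.016), so that the call of Gclc turned on 1 library. By range of sample numbers, Gclc was higher in Rragc S74N/+ by 0.17 on the log2 scale in the lower range, which holds replicate 1, and by 0.61 in the upper.

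Nqo1 encodes a quinone reductase that is widely used as a readout of NRF2. It was measured at a low level here, with 32 to 106 reads per library. The levels were 60.4, 71.8, 101.8, 76.8 and 60.7 normalized counts in Rragc +/+ and 29.8, 96.0, 99.0, 98.8 and 80.6 in Rragc S74N/+. Replicate 1 of Rragc S74N/+ was the lowest of all 10 kidneys, and the groups overlapped. Nqo1 had a log2 fold change of 0.03 ± 0.28 (SE; 95% interval -0.57 to 0.63; limma adjusted p = 0.96). Without replicate 1 it was 0.35 ± 0.18 (95% interval -0.02 to 0.72; limma adjusted p = 0.24). In the lower range of sample numbers the difference was -0.21 and in the upper range 0.38 on the log2 scale.

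**Figure D2:**
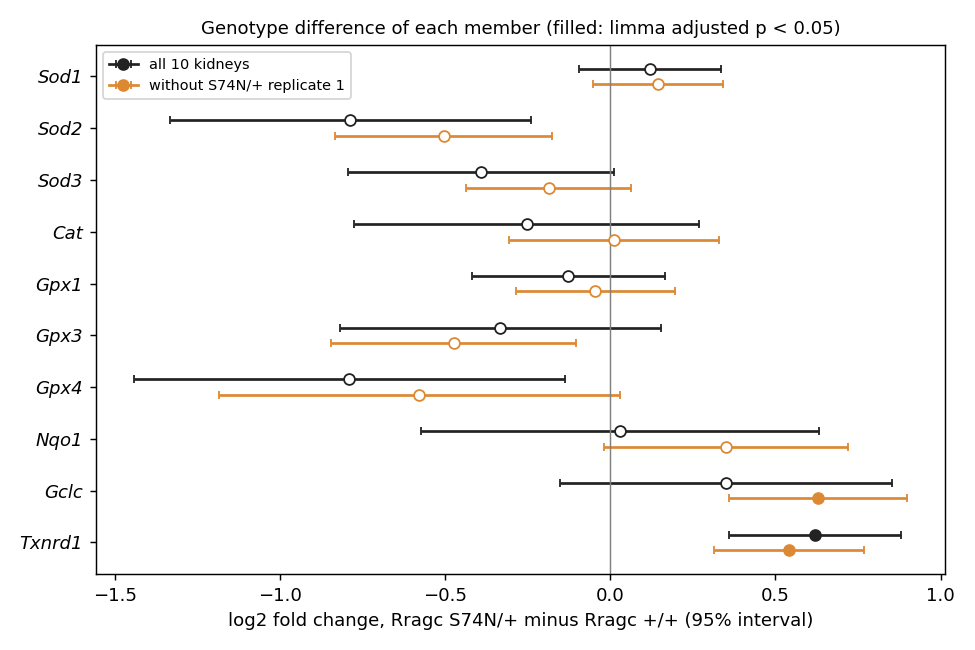
Log2 fold change of each gene, Rragc S74N/+ minus Rragc +/+ (horizontal axis, log2 of normalized count + 1), with its 95% interval, from all 10 kidneys (black) and without Rragc S74N/+ replicate 1 (orange); filled points had a limma adjusted p under 0.05. Txnrd1 is filled in both fits, at 0.62 and 0.54, and Gclc only without replicate 1, at 0.63.

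The superoxide dismutases differ by the place where they work. SOD2 is the manganese enzyme of the mitochondrial matrix. Sod2 stood at 628, 988, 716, 646 and 517 normalized counts in Rragc +/+ kidneys and at 180.0, 358, 512, 578 and 505 in Rragc S74N/+ kidneys. A total of 4 Rragc S74N/+ kidneys lay below the lowest Rragc +/+ kidney, and replicate 4 lay within their range. The mean was 699 ± 176.7 in Rragc +/+ and 427 ± 160 in Rragc S74N/+ (SD over 5 kidneys each), a ratio of 0.610. The log2 fold change of Sod2 was -0.79 ± 0.26 (SE; 95% interval -1.33 to -0.24), which did not pass over all genes (limma adjusted p = 0.078), and 9.76% of genes had a smaller limma p. The exact permutation test of this gene alone, not adjusted, gave p = 0.016. Without replicate 1 the difference was smaller, -0.50 ± 0.16 (limma adjusted p = 0.058; exact permutation p = 0.040). It was -1.25 in the lower range of sample numbers and -0.10 in the upper range.

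SOD1, the copper-zinc enzyme of the cytosol, had the most even levels of the 10 genes, with 4551 to 5492 normalized counts in Rragc +/+ and 5217 to 5937 in Rragc S74N/+. Sod1 had a log2 fold change of 0.12 ± 0.10 (SE; 95% interval -0.09 to 0.34; limma adjusted p = 0.48; exact permutation p = 0.056), with 3 Rragc S74N/+ kidneys above the Rragc +/+ range. Without replicate 1 it was 0.14 ± 0.09 (limma adjusted p = 0.38; exact permutation p = 0.032, not adjusted). In the fit of all 10 kidneys, 52.4% of genes had a smaller limma p than Sod1. SOD3 is the secreted enzyme of the extracellular matrix. Its gene had 1104 to 1645 normalized counts in Rragc +/+ and 579 to 1262 in Rragc S74N/+. The log2 fold change of Sod3 was -0.39 ± 0.19 (95% interval -0.79 to 0.01; limma adjusted p = 0.21), and -0.19 ± 0.12 without replicate 1 (limma adjusted p = 0.37). By range of sample numbers it was -0.64 in the lower and -0.02 in the upper.

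Catalase, the peroxisomal enzyme that splits hydrogen peroxide, showed no detectable difference. Cat had 2767, 3002, 2303, 2023 and 1572 normalized counts in Rragc +/+ and 915, 2675, 2607, 1920 and 2061 in Rragc S74N/+. All Rragc S74N/+ kidneys but replicate 1 lay within the Rragc +/+ range. For Cat the log2 fold change was -0.25 ± 0.25 (SE; 95% interval -0.78 to 0.27; limma adjusted p = 0.55). It was 0.01 ± 0.15 without replicate 1 (95% interval -0.31 to 0.33; limma adjusted p = 0.98), so that the sign of the difference rested on that kidney. The sign also differed between the ranges of sample numbers, with -0.53 in the lower, which holds replicate 1, and 0.16 in the upper.

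Of the glutathione peroxidases, Gpx3, whose product is secreted into plasma, gave by far the most tags. The Rragc +/+ kidneys held 152102, 120286, 101675, 192766 and 169880 normalized counts and the Rragc S74N/+ kidneys 168901, 110615, 98005, 97970 and 107119. Replicates 3 and 4 of Rragc S74N/+ lay just below the Rragc +/+ range, replicates 2 and 5 lay in its lower part, and replicate 1 lay in its upper part. The log2 fold change of Gpx3 was -0.33 ± 0.23 (SE; 95% interval -0.82 to 0.15; limma adjusted p = 0.38), and -0.47 ± 0.18 without replicate 1 (95% interval -0.85 to -0.10; limma adjusted p = 0.11). The difference was -0.01 in the lower range of sample numbers and -0.82 in the upper range.

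Gpx1, the cytosolic glutathione peroxidase, had 9567 to 13795 normalized counts in Rragc +/+ and 9005 to 12567 in Rragc S74N/+, with a log2 fold change of -0.13 ± 0.14 (SE; 95% interval -0.42 to 0.16; limma adjusted p = 0.60) and of -0.05 ± 0.12 without replicate 1 (limma adjusted p = 0.86). GPX4 reduces lipid hydroperoxides in membranes and guards cells against ferroptosis, a form of cell death. The table held 28.0, 26.0, 28.8, 19.2 and 25.9 normalized counts of Gpx4 in Rragc +/+ and 7.46, 14.5, 19.996, 11.2 and 23.3 in Rragc S74N/+. A total of 3 Rragc S74N/+ kidneys lay below the Rragc +/+ range, with a log2 fold change of -0.79 ± 0.31 (limma adjusted p = 0.12; exact permutation p = 0.024) and of -0.58 without replicate 1 (limma adjusted p = 0.24; exact permutation p = 0.040). These values rest on 8 to 30 reads per library, for which counting alone gives an error of 19.8% and 25.3% of the mean. In addition, 98.4% of the 50-base stretches within the last 300 bases of 2 of its transcripts, and 80.5% in the third, also occur in the transcript of Gpx4-ps2, a processed copy that the table lists at 24.0 to 59.1 normalized counts. The level of Gpx4 is therefore uncertain, because reads that match both places may not have been counted for it. The same search found shared stretches for Sod1 (18.3%) and for 1 of 2 transcripts of Sod2 (9.16%), and 0 for the other 7 genes.

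**Figure D3:**
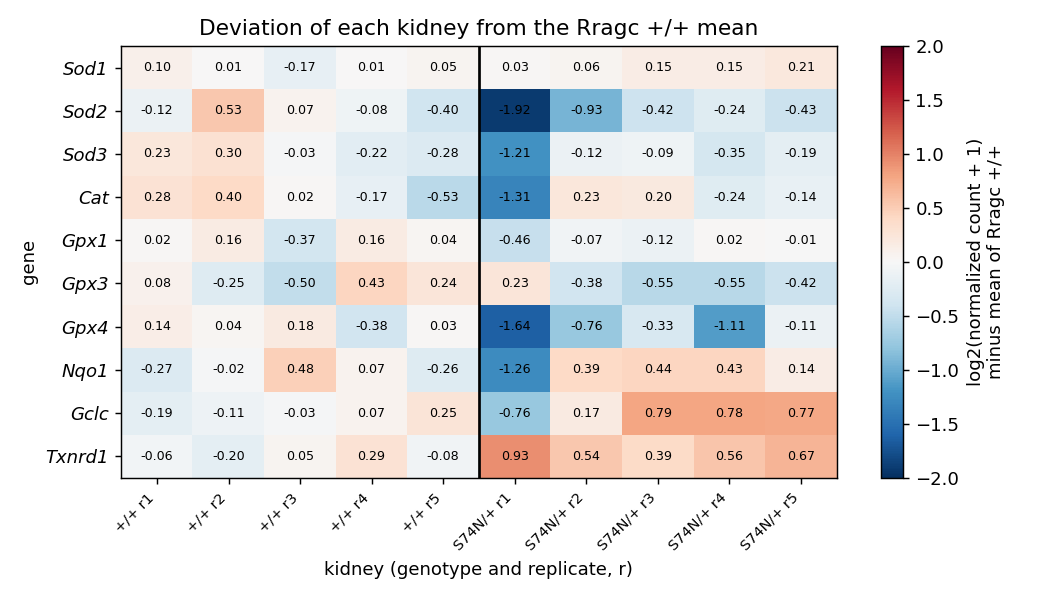
Deviation of each kidney (columns; r is the replicate) from the Rragc +/+ mean of each gene (rows), in log2 of normalized count + 1, with the value printed in each cell. The column of Rragc S74N/+ replicate 1 holds the lowest value in the row of Sod2 (-1.92), Cat (-1.31) and Nqo1 (-1.26), and the row of Txnrd1 is positive in every Rragc S74N/+ kidney, from 0.39 to 0.93.

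Some of the 10 genes varied together from kidney to kidney. Across the 10 kidneys Cat and Sod3 were the closest pair, with a Pearson r of 0.949 on the log2 scale and 0.978 after the mean of each genotype was removed. Txnrd1 ran the other way from Gpx4 (r = -0.821) and Sod2 (r = -0.792), with r of -0.615 and -0.636 after the mean of each genotype was removed. These correlations are over 10 libraries that share the 2 genotypes and include replicate 1, and they are given as descriptions. Of all genes tested, Flna, Clk1 and Fxyd5 had the patterns most like Txnrd1, with r of 0.983, 0.977 and 0.971 over the 10 kidneys. After the mean of each genotype was removed, these r were 0.927, 0.908 and 0.893. Flna encodes filamin A, an actin crosslinker, Clk1 a splicing kinase and Fxyd5 a membrane protein of the FXYD family. Their log2 fold changes were 0.81, 0.54 and 0.96. Since Txnrd1 separates the genotypes, genes picked for likeness to it are higher in Rragc S74N/+ through that choice, and their rise is not a separate result.

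The regulators of the pathway and its other targets were read from the same fit, in 9 lists grouped by role that held 97 tested genes. Of these, 3 rose and 3 fell, which is 6.19%, beside the background of 6.03%, and the median log2 fold change was -0.08. Of the 97 genes, 30 had an unadjusted limma p under 0.05, and over all genes tested that share was 25.4%. The counts per list that follow are to be read beside this share. Of NRF2 and its regulators, 0 of 10 passed the limma test, and 4 had an unadjusted p under 0.05. Nfe2l2, which encodes NRF2, had 600.4 ± 71.9 normalized counts in Rragc +/+ and 617 ± 88.4 in Rragc S74N/+ (log2 fold change 0.04 ± 0.12; limma adjusted p = 0.88). Keap1, its inhibitor, had 467 ± 26.8 and 421 ± 51.7 (log2 fold change -0.15 ± 0.11; limma adjusted p = 0.42). The message levels of the factor and of its inhibitor thus did not differ detectably, and these data do not measure the protein.

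Other genes known as NRF2 targets, chiefly in detoxification, iron handling and heme breakdown, gave 0 of 17 past the threshold in limma. A total of 5 had an unadjusted p under 0.05, where the share over all genes was 25.4%, and the median log2 fold change was 0.09. Hmox1, the heme oxygenase, had 73.8 ± 25.8 normalized counts in Rragc +/+ and 77.5 ± 20.2 in Rragc S74N/+ (log2 fold change 0.09; limma adjusted p = 0.84). Of 9 tested genes for glutathione synthesis and recycling 0 passed in limma and 1 had an unadjusted p under 0.05, while 6 had a positive log2 fold change, with a median of 0.16. Over all genes, 6451 of 13236 had a positive log2 fold change. Gclm, the partner subunit of Gclc, had 2235 ± 382 and 2666 ± 418 normalized counts (log2 fold change 0.26 ± 0.14; limma adjusted p = 0.26). Gsr, which regenerates reduced glutathione, had 408 ± 28.9 and 445 ± 79.8 (log2 fold change 0.11; limma adjusted p = 0.62). Of 12 genes for thioredoxins and peroxiredoxins 0 passed in limma and 4 had an unadjusted p under 0.05, with a median of -0.28. Srxn1, sulfiredoxin, which repairs overoxidized peroxiredoxins, had 174 ± 24.4 and 163 ± 38.8 normalized counts (log2 fold change -0.12; limma adjusted p = 0.70).

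Genes that supply NADPH to these enzymes moved in both directions. Idh2, the mitochondrial isocitrate dehydrogenase that makes NADPH, fell from 1285 to 1779 normalized counts in Rragc +/+ to 683 to 1072 in Rragc S74N/+, with no overlap (log2 fold change -0.73 ± 0.13; limma adjusted p = 0.0062). Me1, the cytosolic malic enzyme, rose from 1318 to 1770 normalized counts to 1974 to 2440, again with no overlap (log2 fold change 0.48 ± 0.12; limma adjusted p = 0.024). The other 8 genes of that list did not pass. Groups did not overlap, in either direction, in 8.16% of all genes tested.

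Gpx6, a glutathione peroxidase related to Gpx3, fell among 7 other peroxidases and cofactor genes. It had 22.4, 43.7, 15.4, 29.7 and 16.9 normalized counts in Rragc +/+ and 0, 0.969, 7.00, 7.13 and 0 in Rragc S74N/+, with no overlap (log2 fold change -3.23 ± 0.63; limma adjusted p = 0.0088). The level of Gpx6 was low in all kidneys, with a ratio of means of 0.118. Its log2 fold change depends on the 1 that was added to each normalized count. Of 12 selenoprotein and selenium supply genes, Selenom fell, from 256 ± 37.5 to 171 ± 31.5 normalized counts (log2 fold change -0.59 ± 0.15; limma adjusted p = 0.032), and the median of the list was -0.26. Of 13 peroxisome genes 0 passed in limma, and the median was -0.06. A total of 5 had an unadjusted p under 0.05, where the share over all genes was 25.4%. Across the 97 genes edgeR called the same 6 genes as limma, and DESeq2 called these 6 and Abcd3.

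Of 8 NADPH oxidase subunits, 2 rose, Cybb and Rac2. Cybb, the catalytic subunit of the phagocyte oxidase, had 96.2, 61.4, 80.6, 92.6 and 97.5 normalized counts in Rragc +/+ and 204, 205, 155, 153 and 180 in Rragc S74N/+. Rac2, a GTPase that activates this oxidase, had 20.1 to 48.0 normalized counts in Rragc +/+ and 56.0 to 119 in Rragc S74N/+. Neither gene overlapped between genotypes, with log2 fold changes of 1.07 ± 0.16 for Cybb (limma adjusted p = 0.0014) and 1.44 ± 0.26 for Rac2 (limma adjusted p = 0.0062). The summed level of 8 macrophage markers was 589 to 766 normalized counts in Rragc +/+ and 894 to 1212 in Rragc S74N/+, with 2 of the 8 past the threshold, both higher. Of the 8, 6 had a positive log2 fold change, while Cd68 (-0.34) and C1qc (-0.48) were negative and did not pass. Csf1r, which did not pass, gave the largest part of the sum, with a mean of 302 of 702 in Rragc +/+ and 403 of 1025 in Rragc S74N/+. The summed level of 3 neutrophil markers was 21.1 to 38.0 in Rragc +/+ and 43.0 to 83.0 in Rragc S74N/+, with 1 of 3 past the threshold, also higher. That of 6 T and B cell markers was 147 to 1066 in Rragc +/+ and 374 to 1308 in Rragc S74N/+. All 6 had a positive log2 fold change, with a median of 1.03, and 0 passed the threshold. The part of any of these cell types in the rise of Cybb and Rac2 was not tested.

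**Figure D4:**
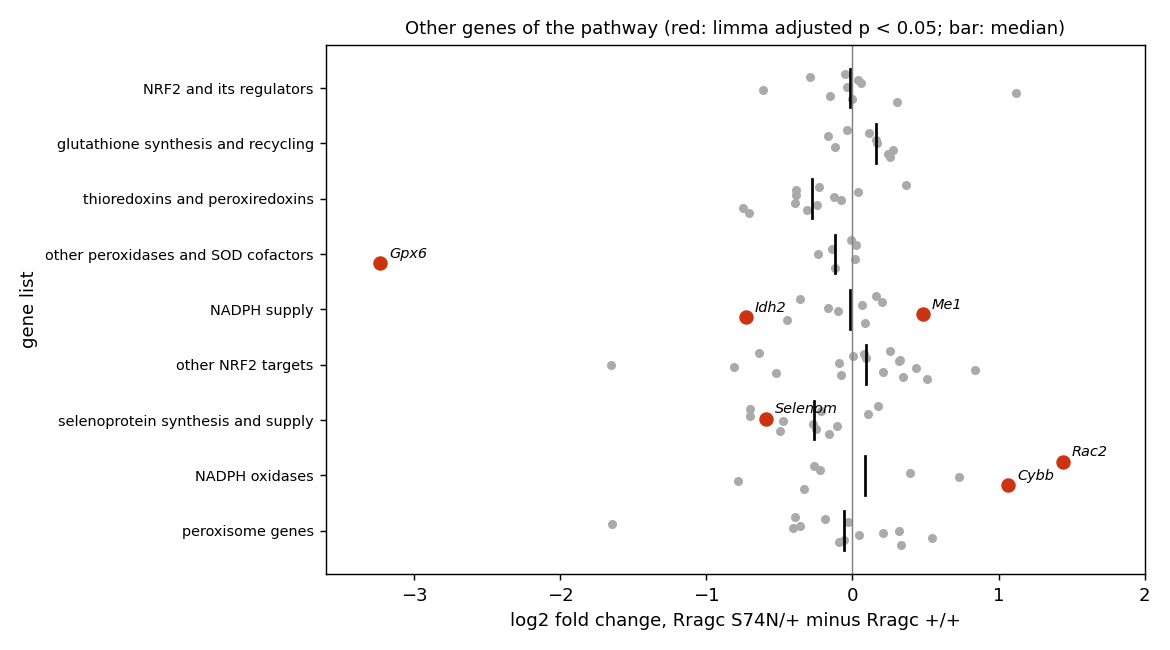
Log2 fold change, Rragc S74N/+ minus Rragc +/+ (horizontal axis, log2 of normalized count + 1), of the 97 other genes of the pathway in 9 lists (vertical axis); each point is 1 gene, red and named where the limma adjusted p was under 0.05, and the bar is the median of the list. The 6 named genes lie in 4 of the 9 lists, and the medians lie between -0.28 and 0.16.

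Without Rragc S74N/+ replicate 1 all 6 of these genes passed again, and 3 more did, Ftl1, which was lower, and Abcd3 and Ehhadh, which were higher. Ftl1 encodes the ferritin light chain, Abcd3 a peroxisomal fatty acid transporter and Ehhadh an enzyme of peroxisomal fatty acid oxidation. In that fit the median of thioredoxins and peroxiredoxins was -0.12 in place of -0.28, that of glutathione genes 0.11 in place of 0.16, that of selenoprotein genes -0.32 in place of -0.26, that of peroxisome genes 0.01 in place of -0.06 and that of NADPH oxidases 0.17 in place of 0.08. Cybb, Rac2, Idh2 and Gpx6 passed in each of the 10 fits that left out 1 kidney. Me1 passed in 6 of them and Selenom in 5. Both lost their call without Rragc +/+ replicate 1, 2 or 4 and without Rragc S74N/+ replicate 5, and Selenom also without Rragc S74N/+ replicate 4.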

How the data were processed

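Total RNA (300 ng) from whole kidneys was made into QuantSeq 3′ libraries by the authors, who aligned reads to GRCm39 with TopHat2 2.0.10 and counted them per gene with HTSeq 0.6.1, by strand. Per the file headers and the values, the deposited table holds a signal, read counts divided by DESeq2 size factors, for 10 samples with 5 per genotype. The values were 100% whole multiples of 1 read within 0.01 reads in every library, so whole reads were recovered as counts for the edgeR and DESeq2 alternatives.

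Genes with at least 5 normalized counts in at least 5 samples (13236) were fitted with limma 3.58.1 (R 4.3.3) on log2(normalized count + 1), eBayes with a variance trend and genotype as the term, and p was adjusted by Benjamini-Hochberg over all of them at 0.05. Single genes were also tested by an exact two-sided permutation test of the means. It was not run over all genes and its p-values were not adjusted, so no background share stands beside its counts. edgeR 4.0.16 and DESeq2 1.42.0 were alternatives. Scripts were tested on simulated data. The labels give 1 genotype and age per sample, and replicates were numbered in deposit order. The labels name no litters, and p-values measure the spread between these samples. Alternatives were other pseudocounts, filters, scalings and variance models, each kidney left out, and the range of sample numbers as a term or a subset.

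The members and the lists were chosen with earlier results of these data known. Named were the 10 members, list genes past the threshold (at most 4 per list), Nfe2l2, Keap1, Hmox1, Gclm, Srxn1 and Gsr, the 3 genes most like each called member, and markers beside a result. Promoter sequences are from RefSeq (GRCm38.p6), and transcript ends from GENCODE. Intervals from reads cover counting error only. Slc7a11 and Xist were not analysed here. RNA quality scores were given only for the set as a whole, on average 6.7 with a range of 6.2 to 7.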

Additional observations from a re-analysis of the deposited data

Results flagged for a closer look

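For 22 genes (the 10 members and the other named genes of the pathway), each group of 5 kidneys was searched for a mouse far from the others by Dixon's criterion. Of 44 groups searched, 3 held such a mouse, where chance alone gives about 2.2, and in each of them it was Rragc S74N/+ replicate 1. Gpx3 was 168901 normalized counts in that kidney, against 97970 to 110615 in the other Rragc S74N/+ kidneys. Nqo1 was 29.8 normalized counts there, against 80.6 to 99.0. Keap1 was 332 normalized counts there, against 426 to 457.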

How the results depend on the processing

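Of 24 alternatives, Txnrd1 kept its direction in 24 and its call in 23, and the call was lost on sample numbers under 200 alone (0.69; limma adjusted p = 0.14). That fit also gave 0 members, 0 pathway genes and 46 genes in all, from 3 kidneys per genotype. DESeq2 called 2 members (Sod2 at -0.71 was added; adjusted p = 0.048) and 1354 genes in all (781 higher, 573 lower), a limma fit without the variance trend 391, and a threshold of 0.01 187. Leaving out 1 kidney gave 1 to 2 members, 4 to 9 pathway genes, 3 to 5 members by the exact permutation test (not adjusted, and not run over all genes) and 311 to 902 genes in all. The fits that moved the last count by over 1.5 times were those without Rragc +/+ replicates 1 (368), 2 (311) or 4 (383) or Rragc S74N/+ replicate 5 (371). The 2 members and the 5 by the exact test were both without Rragc S74N/+ replicate 1, where Gclc was added (0.63; limma adjusted p = 0.0057). Over the fits that left out 1 kidney, Cat ranged from -0.39 to 0.011, and it turned positive without Rragc S74N/+ replicate 1 alone. Nqo1 ranged from -0.073 to 0.35 over those fits, was negative in 6 of them, and was -0.21 on sample numbers under 200. The 6 pathway calls were all lost on sample numbers under 200. Me1 and Selenom were also lost without the variance trend and at a threshold of 0.01, Selenom with scaling to equal sums, and Gpx6 because a mean of at least 50 leaves it out. The cause of the other changes was not tested.

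Scaling to equal sums put 76.1% of 943 called genes on the higher side, and scaling to equal sums outside the mitochondrial genome 68.9% of 882, against 57.3% of 798 as deposited. With either, Txnrd1 stayed the only called member. No paired analysis was possible because the labels give no replicate numbers, and those used here follow the order of deposit. Depth limits Gpx4 (8 to 30 reads) and Nqo1 (32 to 106 reads). Nothing here measures protein, enzyme activity or oxidants.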

Other observations

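Some further genes of the oxidant defence had their lowest level in Rragc S74N/+ replicate 1, and they are named after their values were seen. Prdx1, a cytosolic peroxiredoxin, had 592 normalized counts in that kidney, against 3116 to 3633 in the other Rragc S74N/+ kidneys and 2860 to 5520 in Rragc +/+. Txn1, the cytosolic thioredoxin that TXNRD1 reduces, had 257 normalized counts there, against 515 to 725 and 587 to 751. Prdx5, a peroxiredoxin of mitochondria and peroxisomes, had 2779 there, against 4370 to 5508 and 5118 to 6201. The hemoglobin genes of red blood cells were low in the same kidney. Hba-a1 had 145 normalized counts there, against 1352 to 2459 in the other Rragc S74N/+ kidneys and 2215 to 4410 in Rragc +/+. Hbb-bs had 329, against 3148 to 4084 and 3863 to 8286. The summed level of 5 red blood cell markers was 11780 to 28434 in Rragc +/+ and 2739 to 13753 in Rragc S74N/+. Of these 5 markers, 0 had a positive log2 fold change and 0 passed the threshold, with a median of -0.88. Of 12 proximal tubule markers, 8 had their lowest level of the group in that kidney and 5 their lowest level of all 10 kidneys. Hnf4a, for example, a transcription factor of the proximal tubule, had 366 normalized counts there, against 627 to 845 in the other Rragc S74N/+ kidneys and 832 to 1061 in Rragc +/+. The summed level of the 12 was 121572 there, against 125811 to 159333 in the other Rragc S74N/+ kidneys and 117754 to 160966 in Rragc +/+. Kap alone gave 87247.5 of the 121572, so the sum says little about the other markers. The part of any of these in the levels of the members was not tested.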
